A study of Hordeum vulgare with 6 samples.

Results

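The genes described are 3 P-type cyclins and 1 T-type cyclin of barley. On chromosome 1H lies *Cyclin p4;1a*, with the identifier HORVU.MOREX.r3.1HG0057570, and on chromosome 6H lies *Cyclin p4;1b*, identified as HORVU.MOREX.r3.6HG0551650. The third P-type gene, *Cyclin p2;1*, is HORVU.MOREX.r3.2HG0198940 on chromosome 2H, and *Cyclin T1-4* is listed under HORVU.MOREX.r3.4HG0350850 on chromosome 4H. They are 4 of the 26933 genes in the deposited table, taken by identifier from the genes that the study grouped under cell division. The study picked them because it found them changed between these same libraries and bound by HvMADS1, so their differences between genotypes are given here as a description, without p-values. RNA was sequenced from barley cv. Golden Promise at Waddington stage 7.5, a point on the scale that orders barley inflorescences by development. There were 3 wild type (WT) libraries and 3 from *mads1* plants, in which CRISPR-Cas9 had knocked out the floral regulator *HvMADS1*, and both genotypes were grown under normal conditions. Each library was a pool of lemma and awn from several plants according to the methods, while the sample labels name the spikelet, and the study's read tracks label the mutant as *mads1-8*, 1 of its knockout lines. The targeted gene itself is not analysed here, so it gives no check of the genotype labels.

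Cyclins are the regulatory partners of cyclin-dependent kinases (CDKs), which have little activity without them. P-type cyclins, called U-type in some plant work, resemble the yeast cyclin PHO80, and in Arabidopsis they bind the cell cycle kinase CDKA;1. In rice a U4-type cyclin is known for the division of sclerenchyma cells at the lamina joint, and in Arabidopsis CYCP2;1 is known for the entry of meristem cells into mitosis. T-type cyclins have another role: with C-type CDKs they phosphorylate RNA polymerase II, which promotes the elongation of transcripts. The lemma encloses the inner floral organs and the awn extends from its tip.

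The primers that the study designed for RT-qPCR are printed because they identify the 3 P-type transcripts, each 5′ to 3′. Capitals mark the longest run of bases shared by primers of different genes, 10 bases in the reverse primers of the pair of *p4;1* genes.
Cyclin p4;1a forward: cctcgaccgcttcctacgc
Cyclin p4;1a reverse: ggtaGTTCATCTCCatcaggct
Cyclin p4;1b forward: tcctcatcaccagcgtcat
Cyclin p4;1b reverse: cGTTCATCTCCcgcagctc
Cyclin p2;1 forward: caaggtcctggacgacttcc
Cyclin p2;1 reverse: cgctcggtagaggtcgtaga
Every other pair of primers from different genes shared at most 5 bases in a row, on either strand. Reads that fit both *p4;1* transcripts would have been divided between them by the estimation of expression, and how many there were is unknown, so the split between these genes is less certain than their sum.

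The deposited values are named FPKM by the file and the methods, a unit that divides the fragments of each transcript by its length and by library size. They summed to between 939663 and 994495 per library. Sums this close to each other are also what TPM would give, and the values do not settle which unit they are in. Between 3488 and 4177 genes were listed at 0. The number of reads is unknown. On log2(FPKM + 1), the lowest correlation between libraries of one genotype was 0.982 and the highest between genotypes was 0.941, across the 17996 genes that reached 1 FPKM in 3 or more libraries. Each of them was tested with limma, and called changed where the Benjamini-Hochberg adjusted p was below 0.05 and the genotypes differed at least 1.5-fold. Of the tissue markers, the lemma and awn gene *DL* and the awn gene *SHI* were present in every library, at 49.8 to 96.5 and at 14.3 to 63.4 FPKM. *MADS2*, whose class of gene acts in lodicules and stamens, was also present, at 6.45 to 13.3 FPKM. All 3 markers are on the study's list of bound and changed genes and were lower in *mads1*, and their part in the differences below was not tested.

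All 3 P-type cyclins were lower in *mads1* and *Cyclin T1-4* was higher. The mean FPKM in *mads1* was 10.04% of that in WT for *Cyclin p4;1a*, 13.0% for *Cyclin p4;1b* and 15.2% for *Cyclin p2;1*, against 174% for *Cyclin T1-4*. All 4 genes passed the filter on low values. Over all genes tested, 21.1% were called changed, 14.5% lower and 6.6% higher. For each of the 4 genes the values of the genotypes did not overlap, a separation that was found for 26.5% of all genes tested with *mads1* below WT and for 29.4% with *mads1* above. The genes were chosen on this contrast, so nothing is read from this separation. In bulk tissue, fewer cells that express a gene and less RNA per cell cannot be told apart.

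*Cyclin p4;1a* measured 32.0, 24.5 and 25.6 FPKM in WT replicates 1, 2 and 3, against 2.09, 3.05 and 3.1 FPKM in *mads1* replicates 1, 2 and 3. Values of the other genes follow the same order of replicates, whose numbers are not said by the labels to pair the libraries. It was the most abundant of the P-type cyclins in WT. The WT mean of 27.4 ± 4.03 FPKM compares with 2.75 ± 0.569 FPKM in *mads1* (SD, n = 3 each), a difference of -2.92 on the log2(FPKM + 1) scale (standard error 0.15). The lowest WT library stood at 7.91 times the highest *mads1* library. In WT the gene lay above 61.8% of the genes tested by mean FPKM, in *mads1* above 15.0%. Of all genes tested, 144 had a more negative difference.

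*Cyclin p4;1b*, which carries the same annotation, measured 22.0, 16.1 and 16.6 FPKM in WT against 2.77, 2.72 and 1.61 FPKM in *mads1*. WT replicate 1 was the highest WT library for both genes, and *mads1* replicate 3 was the lowest library here but the highest of the *mads1* libraries for *Cyclin p4;1a*. The mean was 18.2 ± 3.26 FPKM in WT but 2.37 ± 0.656 FPKM in *mads1* (SD, n = 3 each), a log2 difference of -2.52 (standard error 0.18). The gap between the genotypes was 5.81-fold from the lowest WT to the highest *mads1* library. By mean FPKM it lay above 49.7% of the genes tested in WT and above 13.0% in *mads1*.

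*Cyclin p2;1* was the least abundant of the 4, with 2.82, 4.53 and 3.03 FPKM in WT against 0.23, 0.63 and 0.72 FPKM in *mads1*. Here WT replicate 2, not replicate 1, was highest. On average it reached 3.46 ± 0.933 FPKM in WT, against 0.527 ± 0.261 FPKM in *mads1* (SD, n = 3 each). The spread within *mads1* was 49.5% of the mean, the widest of the 4 genes, and in WT it was 27.0%. The log2 difference of -1.54 (standard error 0.20) depends on the pseudocount because the values are low. It was -1.96 with 0.5 and -2.58 with 0.1 added to the FPKM in place of 1. The WT mean was 6.57 times the *mads1* mean, against 7.69 and 9.96 times for the other two P-type cyclins. This gene passed the filter only through its WT libraries, since no *mads1* library reached 1 FPKM.

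*Cyclin T1-4*, annotated as a cyclin family protein, measured 64.1, 74.9 and 74.8 FPKM in WT against 117, 103 and 153 FPKM in *mads1*. It was the most abundant of the 4 in every library. Its mean of 71.3 ± 6.20 FPKM in WT compares with 124 ± 26.0 FPKM in *mads1* (SD, n = 3 each), a log2 difference of 0.78 (standard error 0.14). The lowest *mads1* library was 1.37 times the highest WT library, a narrower gap than that of any P-type cyclin. Without *mads1* replicate 3, the highest library, the log2 difference was 0.62, and without *mads1* replicate 2 it was 0.90. By mean FPKM the gene lay above 85.3% of the genes tested in WT and above 92.9% in *mads1*, and 750 genes had a larger log2 difference.

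**Figure D1:**
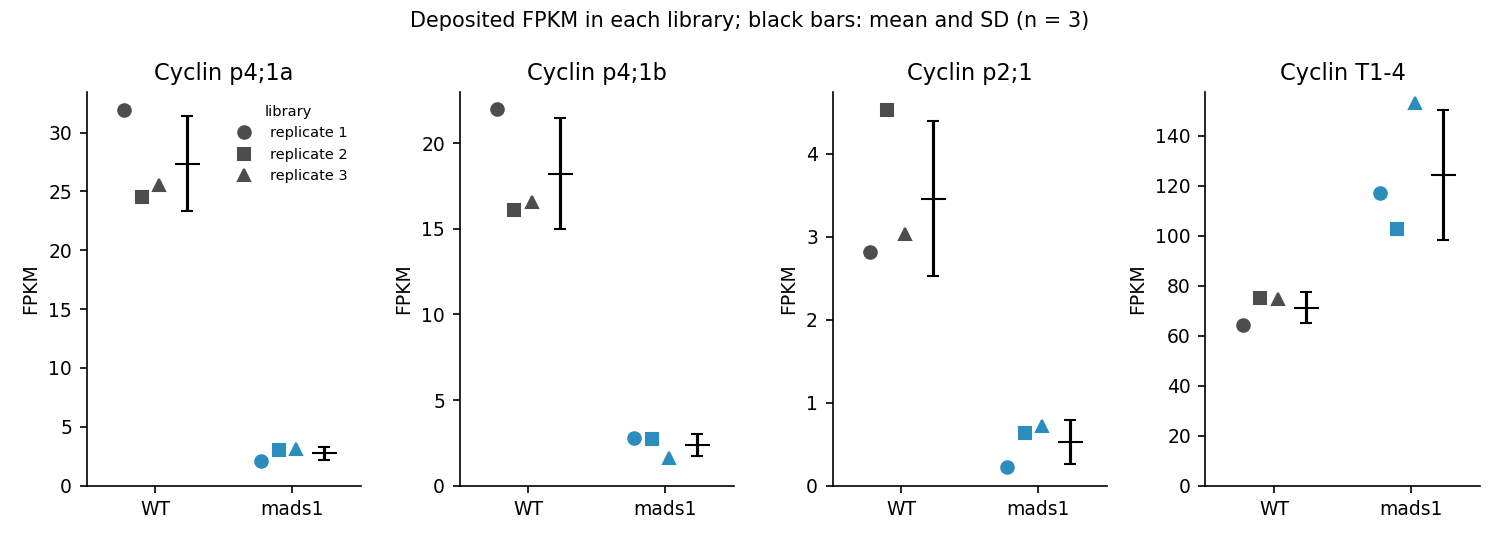
FPKM of each cyclin (vertical axes, each from 0) in the 3 WT and 3 *mads1* libraries, with symbols for the replicate number and black bars for the mean and SD. The *mads1* libraries lie between 0.23 and 3.1 FPKM for the P-type cyclins, under every WT library, and between 103 and 153 FPKM for *Cyclin T1-4*, over every WT library.

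Summed over the 3 P-type cyclins, FPKM came to 56.7, 45.1 and 45.2 in the WT libraries and to 5.09, 6.40 and 5.43 in the *mads1* libraries. The mean sum was 49.0 ± 6.69 FPKM in WT and 5.64 ± 0.68 FPKM in *mads1* (SD, n = 3 each), a ratio of 8.69. *Cyclin p4;1a* held 54.3% to 56.6% of this sum in the WT libraries and 41.1% to 57.1% in the *mads1* libraries. The share of *p4;1b* was 35.6% to 38.7% in WT and 29.7% to 54.4% in *mads1*, and that of *p2;1* 4.97% to 10.04% and 4.52% to 13.3%. For each of the 3 genes the WT shares lay inside the range of the *mads1* shares, so the composition of the sum did not separate the genotypes. Its size had to separate them, because each of the 3 genes was chosen as lower in *mads1* and did not overlap between the genotypes. The low FPKM in *mads1* makes the shares there imprecise.

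In each WT library the levels fell in the order in which the mean FPKM puts them, with *Cyclin T1-4* first and *Cyclin p2;1* last. The ratio of *p4;1a* to *p4;1b* was 1.46, 1.52 and 1.54 in the WT libraries. In *mads1* it was 0.755, 1.12 and 1.93, so that the order of this pair was turned in *mads1* replicate 1 and their levels there overlapped. *Cyclin T1-4* was 1.13 to 1.66 times the P-type sum in WT and 16.03 to 28.2 times in *mads1*.

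**Figure D2:**
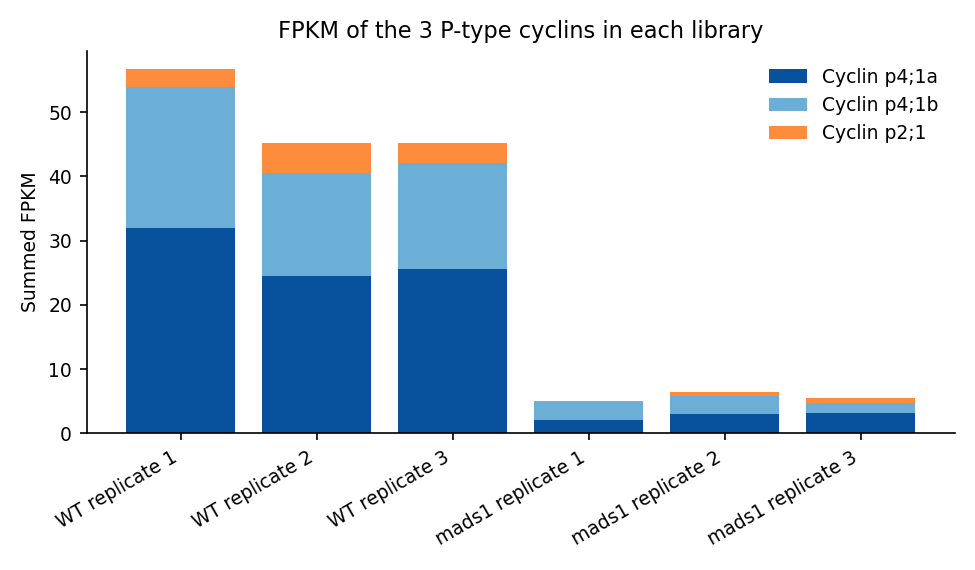
Summed FPKM (vertical axis) of the 3 P-type cyclins in each library (horizontal axis), with the colours showing the part of each gene. The WT bars reach 45.1 to 56.7 FPKM and the *mads1* bars 5.09 to 6.40 FPKM.

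Within a genotype the 4 genes did not all vary together. Over the 6 libraries, the deviations from the genotype means on log2(FPKM + 1) had a correlation of 0.07 between the *p4;1* genes. With *Cyclin p2;1*, the correlation was 0.15 for *p4;1a* and -0.65 for *p4;1b*. *Cyclin T1-4* had correlations of -0.10 with *p4;1a*, 0.39 with *p2;1* and -0.92 with *p4;1b*. For this last pair, the library with the highest *T1-4* in *mads1*, replicate 3, had the lowest *p4;1b*, and the WT library with the lowest *T1-4*, replicate 1, had the highest *p4;1b*. These values describe 6 libraries that share their normalization, and the low FPKM of the P-type cyclins in *mads1* makes their deviations there imprecise.

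On the study's list of 605 bound and changed genes, 541 were tested and the 4 cyclins are among them. Of these 541, 55 had a more negative log2 difference than *Cyclin p4;1a*, 80 than *Cyclin p4;1b* and 194 than *Cyclin p2;1*, and 41 had a larger positive one than *Cyclin T1-4*. The median log2 difference was -1.14 over the 541 genes and 0.05 over all genes tested. The study selected the list on these libraries, so it is not independent evidence of a direction.

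**Figure D3:**
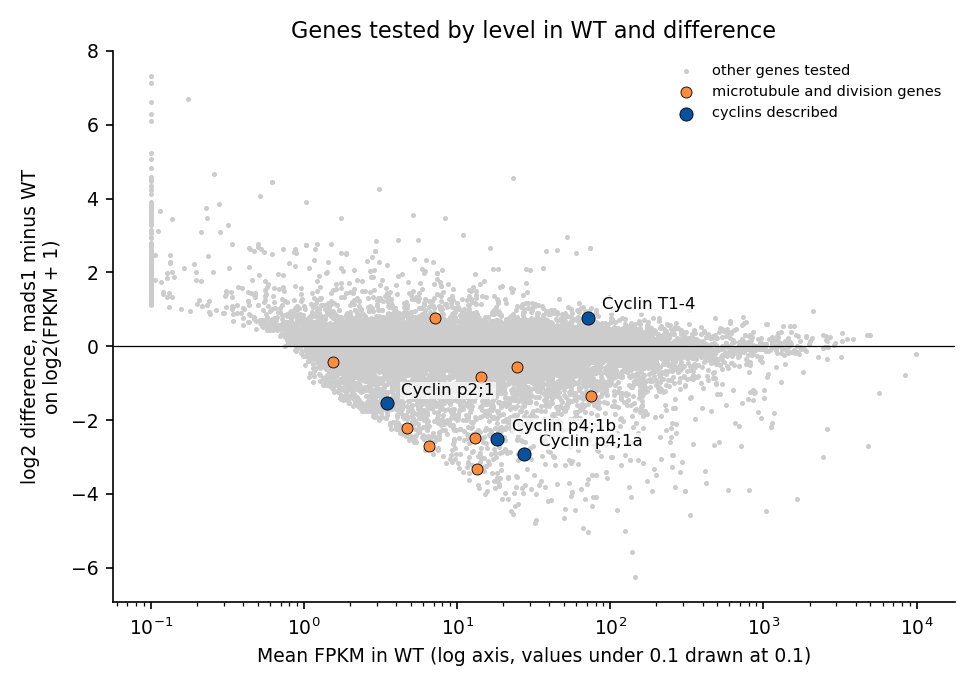
Log2 difference between *mads1* and WT (vertical axis, on log2(FPKM + 1)) against mean FPKM in WT (log axis) for the 17996 genes tested, with the 4 cyclins in blue and 9 microtubule and division genes in orange. The P-type cyclins lie at -2.92, -2.52 and -1.54 and *Cyclin T1-4* at 0.78.

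The study grouped 1 further listed gene with these cyclins, *Cycle 50A*, which is HORVU.MOREX.r3.5HG0509390 on chromosome 5H. Its annotation is ALA-interacting subunit 5, the name in Arabidopsis of a partner of lipid flippases, and not a cyclin. It measured 4.71, 3.91 and 3.41 FPKM in WT against 0.16, 0.73 and 0.17 FPKM in *mads1*, and its mean in *mads1* was 8.81% of that in WT. *Cycle 50A* too passed the filter only through its WT libraries, and its spread within *mads1* was 92.3% of the mean. The range in each genotype overlapped that of *Cyclin p2;1*.

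Among the annotated genes of the same list, 9 were taken as encoding microtubule proteins or kinases of the kind that act in spindles, phragmoplasts or the cortical array. Of these, 6 met the limits for a changed gene with *mads1* lower and 1 with *mads1* higher, against 83.2% lower and 11.8% higher among the 541 tested genes of the list and 14.5% and 6.6% over all genes tested. Their median log2 difference was -1.36. In 8 of the 9 every *mads1* library lay under every WT library, as in 86.1% of the tested genes of the list and 26.5% of all genes tested. The study chose the whole list for change in these libraries, so nothing about the microtubule genes is read from these counts and no p-value is given for them. Of the 9, 4 passed the filter only through their WT libraries: the MAP65/ASE1 and P-loop genes and the TPX2 family genes with the largest differences. The largest differences were those of genes annotated as TPX2 family proteins, a family named for a protein that nucleates spindle microtubules. HORVU.MOREX.r3.3HG0219790 measured 22.6, 9.54 and 8.07 FPKM in WT against 0.21, 0.39 and 0.30 FPKM in *mads1*, a log2 difference of -3.34. HORVU.MOREX.r3.5HG0472420 measured 11.3, 3.45 and 4.84 FPKM in WT and was listed at 0, 0.13 and 0 in *mads1*. The third TPX2 family gene, HORVU.MOREX.r3.3HG0306910, had a log2 difference of -0.56 and missed the limit on fold change.

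Tubulin beta-7 (HORVU.MOREX.r3.4HG0333380), a subunit of the microtubule, was at 13.1 ± 4.12 FPKM in WT and 1.62 ± 1.24 FPKM in *mads1* (SD, n = 3 each). Tubulin alpha-5 (HORVU.MOREX.r3.2HG0132170), which pairs with beta-tubulin, was at 74.9 ± 20.5 FPKM in WT and 28.7 ± 7.84 FPKM in *mads1* (SD, n = 3 each). The MAP65/ASE1 gene (HORVU.MOREX.r3.4HG0337950), of a family that bundles microtubules, had 4.68 ± 2.52 FPKM in WT but 0.147 ± 0.0379 FPKM in *mads1* (SD, n = 3 each). NIMA-related 6 (HORVU.MOREX.r3.1HG0074980), a kinase that in Arabidopsis acts on cortical microtubules, had a log2 difference of -0.82. The annotation of a P-loop protein with a calponin homology domain (HORVU.MOREX.r3.7HG0718200) does not name microtubules, so its place among these genes is less certain. This gene was at 0.88 FPKM in *mads1* and 1.54 FPKM in WT and missed the fold change limit on the log2(FPKM + 1) scale. The gene annotated as a microtubule motor (HORVU.MOREX.r3.2HG0164490) was higher in *mads1* instead, at 12.9 ± 1.85 FPKM against 7.18 ± 0.399 FPKM in WT (SD, n = 3 each).

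**Figure D4:**
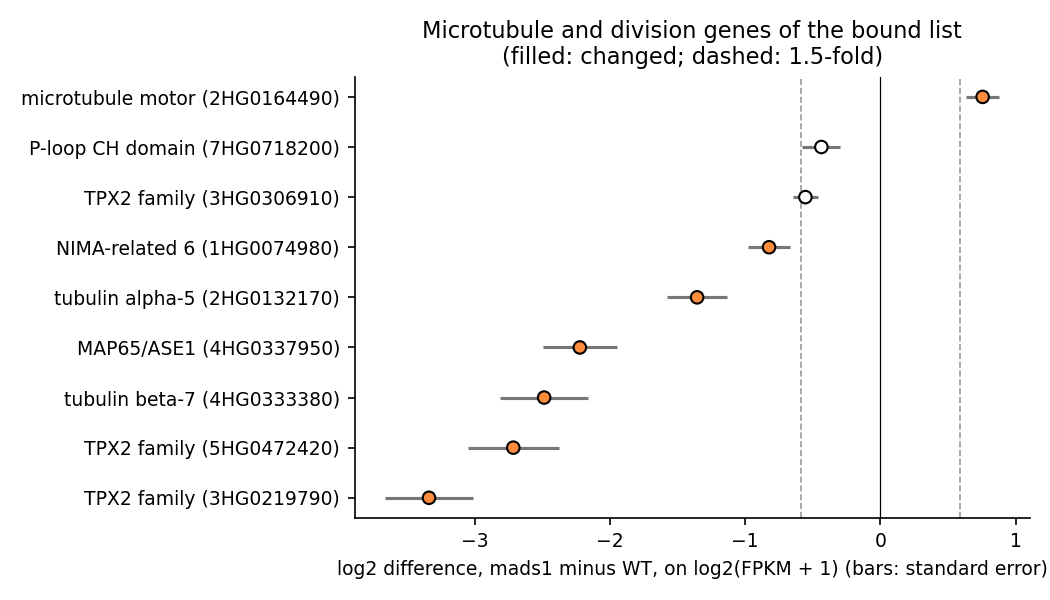
Log2 difference between *mads1* and WT on log2(FPKM + 1) (horizontal axis, bars show the standard error) for the 9 microtubule and division genes of the bound list, with filled points for genes called changed. The points run from -3.34 to 0.75, and 1 of the 9 lies above 0.

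WT replicate 1 stood apart for several of these genes. It was 1.28 times the mean of the other WT libraries for *Cyclin p4;1a* and 1.34 times for *p4;1b*, but 0.746 times for *p2;1* and 0.856 times for *Cyclin T1-4*. It was 2.35 to 2.72 times that mean for 3 microtubule genes, the MAP65/ASE1 gene and the TPX2 family genes with the largest differences. For the other microtubule genes it was 0.997 to 1.67 times that mean. The share of all genes that reached 2.35 times was not computed. Over all genes tested, WT replicate 1 reached 1.3 times the mean of the other WT libraries for 9.62% of genes, against 4.45% and 5.12% for replicates 2 and 3. Without it the log2 differences of the 4 cyclins were -2.81, -2.38, -1.64 and 0.70 in the order above, and 6 microtubule genes were still called lower and 1 higher.

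For the role of *Cyclin T1-4* in transcript elongation, the bound list holds 1 gene of that process by annotation, a leo1-like gene (HORVU.MOREX.r3.5HG0511520). Leo1 is a subunit of the Paf1 complex, which travels with RNA polymerase II. The gene measured 3.23, 4.35 and 3.41 FPKM in WT against 9.23, 7.82 and 11.7 FPKM in *mads1*, a log2 difference of 1.17 (standard error 0.16). It was higher in each *mads1* library than in any WT library, as were *Cyclin T1-4* and 29.4% of all genes tested. For the leo1-like gene and *Cyclin T1-4*, *mads1* replicate 3 was the highest library and WT replicate 1 the lowest. The marker *DL* too was highest in replicate 3 among the *mads1* libraries and lowest in replicate 1 among the WT libraries. This order was therefore not particular to genes of elongation, and the share of all genes that had it was not computed. The study selected the leo1-like gene too on these libraries, so nothing about elongation is read from it.

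The 4 cyclins lie on 4 chromosomes, and the rows next to them in identifier order were examined because the choice of the genes had not used them. Among the 5 listed rows on each side of each cyclin, 29 of 40 genes were tested and 5 were called changed, or 17.2%, against 21.1% over all genes. The median log2 difference of the 29 was 0.02. Of the 7 tested neighbours of *Cyclin T1-4*, 0 were called changed by limma, and 2 had an unadjusted p below 0.05. The largest log2 difference among them, 0.55 for HORVU.MOREX.r3.4HG0350800, had an adjusted p of 0.00383 in limma but missed the fold change limit on the log2(FPKM + 1) scale.

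Of the 8 tested neighbours of *Cyclin p4;1a*, HORVU.MOREX.r3.1HG0057610 was called lower, at 59.2 FPKM in WT and 20.9 FPKM in *mads1* (mean, log2 difference -1.45, adjusted p = 5.2e-05, limma). Next to *p4;1b*, HORVU.MOREX.r3.6HG0551740 (-0.86) and HORVU.MOREX.r3.6HG0551600 (-0.59) were lower on the log2 scale. HORVU.MOREX.r3.6HG0551600 passed the filter only through its WT libraries, with 0.71, 0.93 and 0.68 FPKM in *mads1*, and lay close to the fold change limit. Next to *p2;1*, HORVU.MOREX.r3.2HG0198800 was higher, at 26.8 FPKM in *mads1* against 6.10 FPKM in WT (mean, log2 difference 1.98, adjusted p = 5.7e-05, limma), and HORVU.MOREX.r3.2HG0198790 was lower (-0.97). No tested neighbour had a log2 difference as large in size as that of *p4;1a* or *p4;1b*. The 1.98 of HORVU.MOREX.r3.2HG0198800 was larger in size than the -1.54 of *p2;1*. Neighbours of each P-type cyclin exceeded the 0.78 of *Cyclin T1-4* in size. The cyclins were chosen on this contrast, so nothing is read from their place among the neighbours. With 10 rows on each side, 13 of 62 tested genes were called changed, against 21.1% of all genes tested.

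**Figure D5:**
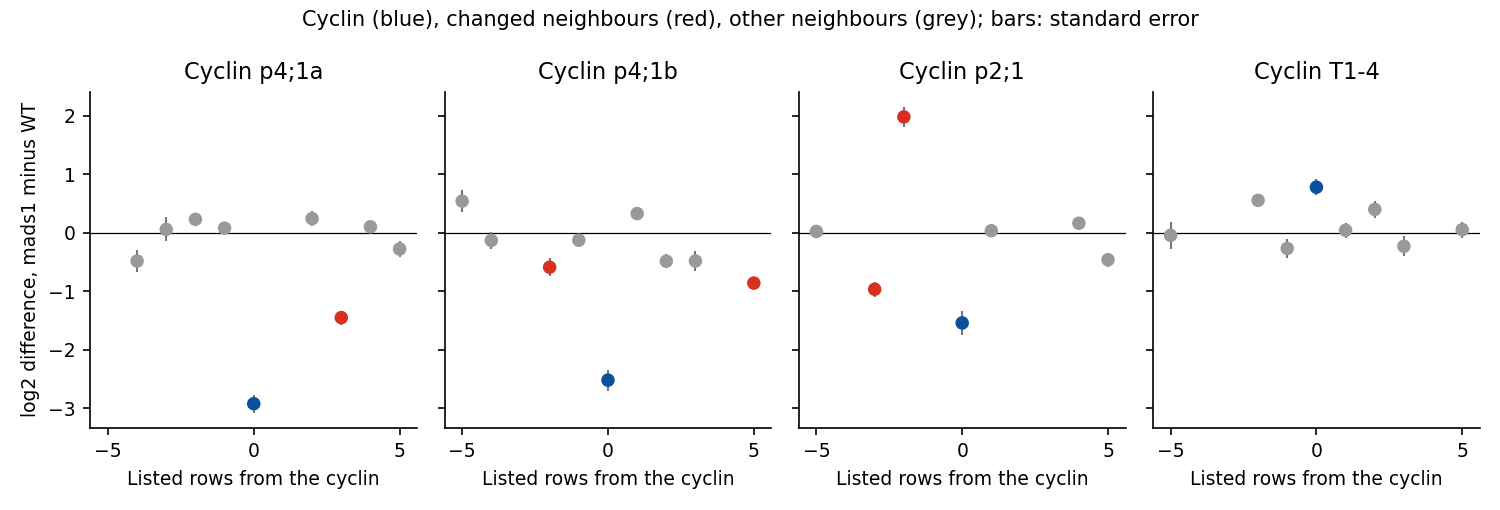
Log2 difference between *mads1* and WT (vertical axis, bars show the standard error) for each cyclin (blue, position 0) and the tested genes among the 5 listed rows on each side (red where called changed, grey otherwise). The cyclins stand at -2.92, -2.52, -1.54 and 0.78, and 5 of the 29 neighbours are red.

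Among 480 annotated genes of the bound list, those nearest in pattern to each cyclin were found by Pearson's correlation. It was taken on log2(FPKM + 1) over the 6 libraries. With 2 genotypes this measure mostly reflects the difference between them, whatever its size or the level of the gene. The 3 genes nearest to *Cyclin p4;1a* had log2 differences of -0.86, -3.04 and -1.02, against -2.92 for the cyclin. For *Cyclin p4;1a* they were genes for a translation initiation factor 3 protein (HORVU.MOREX.r3.6HG0623680), a calcium-binding EF-hand protein (HORVU.MOREX.r3.4HG0391600) and overexpressor of cationic peroxidase 3 (HORVU.MOREX.r3.7HG0713870), each with r of 0.998 to 0.999. For *p4;1b* they were an auxin efflux carrier gene (HORVU.MOREX.r3.6HG0633840), a leucine-rich repeat gene (HORVU.MOREX.r3.6HG0553820) and a peroxidase gene (HORVU.MOREX.r3.6HG0566190), with r of 0.999 for each. The 3 genes nearest to *p2;1* had r of 0.980 to 0.985 and are annotated as a Core-2/I-branching glycosyltransferase (HORVU.MOREX.r3.4HG0339670), an Integrase-type DNA-binding protein (HORVU.MOREX.r3.1HG0090590) and zinc induced facilitator-like 2 (HORVU.MOREX.r3.3HG0255820). *Cyclin T1-4* was closest to MEI2-like protein 5 (HORVU.MOREX.r3.7HG0634720), a tetratricopeptide repeat gene (HORVU.MOREX.r3.4HG0395270) and myb domain protein 36 (HORVU.MOREX.r3.2HG0104540), with r of 0.995 to 0.996.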

How the data were processed

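The authors had 3 WT and 3 *mads1* libraries sequenced by a company, trimmed the reads with Trimmomatic, mapped them to barley and deposited the FPKM of each gene as estimated by RSEM 1.3.3. The aligner is not given in the sources used here. Identifiers are those of Morex version 3. The absolute depth is unknown, so no counting interval was computed.

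The deposited FPKM were taken as log2(FPKM + 1), and genes that reached 1 FPKM in 3 or more of the 6 libraries were compared by limma 3.58.1 (lmFit and eBayes with a trend, R 4.3.3). The study's DESeq2 test needs counts and was not repeated. The fit was tested on simulated data. Libraries were grouped by genotype label, and p-values measure the spread between pools of plants.

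The cyclins and lists were chosen with earlier results of these data known. Genes named are the cyclins, *Cycle 50A*, the microtubule, elongation and marker genes, called neighbours within 5 listed rows, and the 3 annotated genes nearest in pattern. The neighbour of *Cyclin T1-4* that was named without being called, and the comparison of WT replicate 1 with the other WT libraries, were chosen after their values were seen. A planned count of all annotated cyclins and kinases was dropped, because the reference table (MorexV3 RefSeq) holds none of the identifiers of the file. Alternatives changed the pseudocount, filter, scaling, trend, replicate block, fold change limit, neighbour distance and libraries used.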

Additional observations from a re-analysis of the deposited data

How the results depend on the processing

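The log2 differences of the cyclins kept their direction under every alternative run. The genes were chosen on this contrast and the genotypes overlapped for none of them. Leaving out a library or changing the pseudocount therefore could not have reversed a direction, and nothing is read from its being kept. With a pseudocount of 0.1 those of *Cyclin p4;1a*, *p4;1b* and *p2;1* were -3.28, -2.92 and -2.58, and with 0.5 that of *p2;1* was -1.96. Leaving out 1 library at a time gave -2.99 to -2.79 for *p4;1a*, -2.61 to -2.35 for *p4;1b*, -1.64 to -1.38 for *p2;1* and 0.62 to 0.90 for *Cyclin T1-4*. The other scalings and filters that kept all libraries moved no cyclin beyond its replicate spread, and *Cyclin T1-4* stayed between 0.75 and 0.84. A filter at 5 FPKM removed *p2;1*, so it has no value there. With that filter 769 of 14316 tested genes were called higher, against 1187 of 17996 with the filter at 1 FPKM. Without the fold change limit, 4011 genes were lower and 3768 higher, 7779 in all, against 2607, 1187 and 3794 with it. The microtubule genes called lower numbered 4 to 7 over all alternatives, and 1 was higher in each. Their median log2 difference was -1.56 to -1.14 with 1 library left out, and -1.09 with the filter at 5 FPKM. With 10 neighbouring rows on each side in place of 5, 13 of 62 tested genes were called in place of 5 of 29, against 21.1% of all genes tested. The deviations of same-numbered libraries of the genotypes had r of -0.07, -0.28 and 0.20, and those of differently numbered libraries had r of -0.34 to 0.40. With 3 libraries per genotype, these values cannot show whether same-numbered libraries shared a batch. The labels state no pairing. With the replicate block 3781 genes were called, 2610 lower and 1171 higher, and the cyclins' differences were as without it. Low FPKM limits the precision for *p2;1* and for the P-type cyclins in *mads1*.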
